A study of Mus musculus with 12 samples.

Results

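The purmorphamine-Oct4 lines are 2 induced pluripotent stem (iPS) cell lines, called line 1 and line 2 here, among the 12 arrays of the series. Per the labels, embryonic fibroblasts were first turned into cells resembling neural stem cells with purmorphamine, and the gene for the transcription factor Oct4 was then introduced into them. They were chosen by their titles and set against 2 reference arrays, 1 of embryonic stem (ES) cells of 129/Ola origin and 1 of fibroblasts from mouse embryos (MEF), whose strain is not given in the sources used here. The genes followed were those at least 4-fold apart between the ES and MEF arrays: 3850 higher in ES (15.2% of 25366 genes with a value on both arrays) and 2323 higher in MEF (9.16%), out of 25415 genes in all. The labels name no strain, sex or animal for the lines, and each sample was hybridised once, as total RNA labelled with Cy3.

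The other arrays were used for the estimate of spread and for comparison. They were 2 lines made with the polycomb protein Bmi1 and Oct4, 1 with sonic hedgehog (Shh) and Oct4, 2 with oxysterols and Oct4, 2 with oxysterols and Oct4 from tail-tip fibroblasts, and 1 sample of spheres that fibroblasts formed under Bmi1. Lines that share a group are separate clones in their titles, and whether they came from separate cultures or animals is not stated, so the p-values below measure only the spread between these samples, which may be technical.

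Purmorphamine is a synthetic agonist of Smoothened, the membrane protein that passes on the hedgehog signal once Patched no longer holds it back, and the Gli transcription factors then switch on target genes. Oct4, the product of Pou5f1, is a transcription factor without which the pluripotent cells of the embryo are not maintained. When a fibroblast becomes an iPS cell, the programme of matrix, contractile and immune genes is shut down and the ES programme of pluripotency factors and epithelial adhesion is switched on. These steps need not be complete in a given clone.

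Levels are given as the log2 signal relative to the array's 75th percentile over gene spots, so 0 is a bright gene and -5 is near background. A signal not well above background was raised to the array's lowest signal that was well above background, which was -5.36 for ES, -6.85 for MEF, -4.82 for line 1 and -4.51 for line 2, and folds that rest on such a level are given as "at least". Between 61.5% and 72.8% of spots were well above background on these 4 arrays. ES and MEF were on slide 1, line 1 on slide 3 and line 2 on slide 2, so slide and group cannot be told apart in the comparisons with ES and MEF. In bulk RNA, fewer cells of a type and less RNA per cell cannot be told apart either.

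All 7 measured ES markers (Pou5f1, Nanog, Sox2, Zfp42, Esrrb, Dppa5a and Utf1) were well above background in both lines, and their summed signal was 99.0% of the ES sum in line 1, 84.7% in line 2 and 1.01% in MEF. Of 14 fibroblast markers, 14 were well above background in MEF, 9 in ES, 8 in line 1 and 11 in line 2, and their summed signal relative to MEF was 6.63% in ES, 4.6% in line 1 and 22.8% in line 2. Among the other iPS lines this sum ran from 4.62% in the Shh-Oct4 line to 33.0% in the second tail-tip line. Of 6 macrophage and leukocyte markers, 3 were well above background in ES and line 1 and 5 in MEF and line 2, with summed levels of 3.53 in ES, 2.91 in MEF, 8.94 in line 1 and 4.41 in line 2. The Ptprc probe used, for a leukocyte marker, was not well above background on any of the 4 arrays, while its other probes were so in MEF alone or not at all.

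Each gene was placed on a scale from 0, its MEF level, to 1, its ES level. Over the 3850 ES-higher genes the median position was 0.866 in line 1 (quartiles 0.628 and 1.064) and 0.847 in line 2 (0.647 and 1.029). Over the 2323 MEF-higher genes it was 0.839 in line 1 (0.656 and 0.971) but 0.619 in line 2 (0.408 and 0.792). The lines thus stood close together on the genes to be switched on and apart on the genes to be switched off. The same single ES and MEF arrays chose the genes and set the scale, so these positions are a description, with no test.

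**Figure D1:**
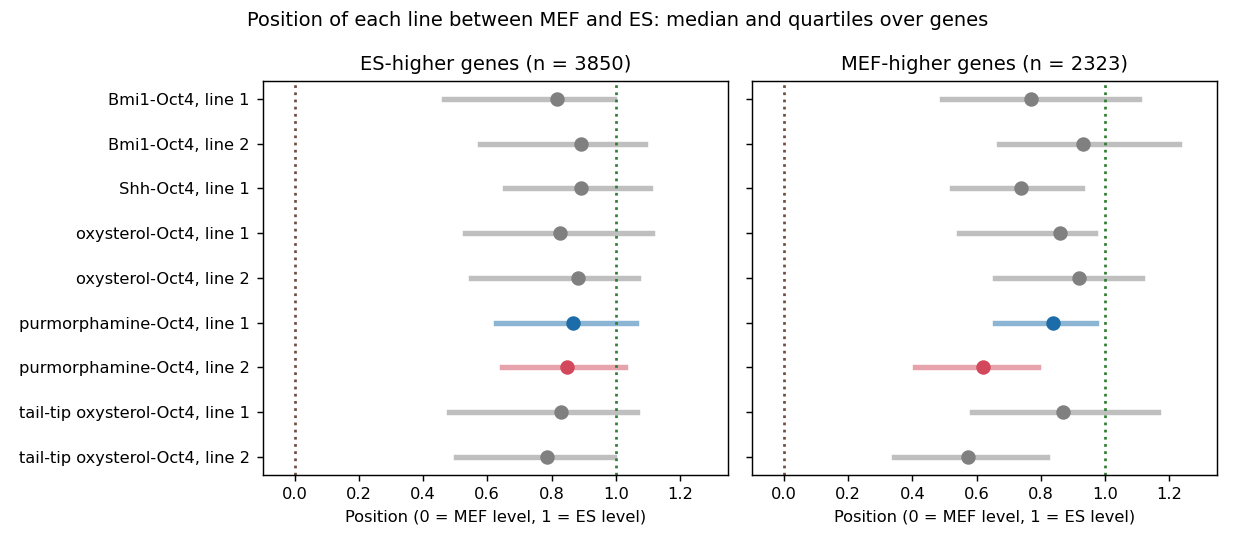
Median position (points) and quartiles (bars) over the ES-higher genes (left) and the MEF-higher genes (right) for the 9 iPS lines, on an axis where 0 is the MEF level and 1 the ES level. Both purmorphamine-Oct4 lines (blue, line 1; red, line 2) lie among the other lines (grey) on the left, while on the right line 2, at 0.619, and the second tail-tip line, at 0.572, have the lowest medians.

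The other 7 lines gave a median of 0.739 to 0.93 for the MEF-higher genes, except for the second tail-tip line at 0.572. For the ES-higher genes they ran from 0.786 to 0.892. Line 2 therefore had the second lowest median for the MEF-higher genes of the 9 lines and line 1 lay inside the range of the others.

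A gene was called at the ES or the MEF level when it was under 2-fold from it, past ES when it was at least 2-fold beyond ES on the side away from MEF, and between otherwise. Of the ES-higher genes, 2291 (59.5%) were at the ES level in line 1 and 2427 (63%) in line 2, with 1749 (45.4%) there in both. Of the MEF-higher genes, 1507 (64.9%) were at the ES level in line 1 and 1070 (46.1%) in line 2, with 775 (33.4%) there in both. Genes kept at the MEF level were 269 (6.99%) in line 1 and 257 (6.68%) in line 2 among ES-higher genes, and 198 (8.52%) and 342 (14.7%) among MEF-higher genes. Genes past ES were 378 (9.82%) and 272 (7.06%) among ES-higher genes, and 166 (7.15%) and 35 (1.51%) among MEF-higher genes. Genes kept at the MEF level in both lines were 107 ES-higher genes (2.78%) and 73 MEF-higher genes (3.14%). Genes past ES in both were 131 ES-higher genes (3.4%) and 12 MEF-higher genes (0.517%). These counts moved with the processing. Raising all lower signals to the highest of the 4 floors left 2650 ES-higher genes, with 230 kept (8.68%) and 78 past ES (2.94%). The MEF floor was the lowest of the 4, so a gene dim in MEF and in a line could be classed as between. Cdx2 was such a gene in line 2.

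Genes at the edge of the 4-fold rule, named for that place alone, were as follows. Cmtm8, just outside among genes higher in ES, was -0.14 and 0.65 log2 from MEF in lines 1 and 2, and Zfp985, just inside, was 3.17 and 2.08 from MEF. Phc2, just outside among genes higher in MEF (3.995-fold), was -2.7 and -1.89 from MEF, and Tceal1, just inside (4.003-fold), was -2.39 and -1.12.

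Both lines expressed the pluripotency factors at the ES level. Pou5f1 stood at 3.62 in ES, -6.66 in MEF, 4.12 in line 1 and 3.36 in line 2, Nanog at 5.14, -3.96, 4.92 and 4.96, and Sox2, its partner factor, at 3.71, -1.16, 3.42 and 3.32. For each of the 3 genes both lines lay within 1 log2 unit of ES and at least 4 units above MEF, with no overlap with MEF. The lines exceeded MEF by 10.4 log2 units for Pou5f1 (SE 0.58, limma adjusted p = 0.00169), by 8.9 or more for Nanog, whose spot was saturated in ES and line 1 (SE 0.59, adjusted p = 0.00269), and by 4.53 for Sox2 (SE 0.45, adjusted p = 0.00742). Whether the Pou5f1 probe read RNA of the introduced gene, of the cell's own gene or of both was not tested.

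Across all genes, the lines were higher than MEF for 847 of 25397 genes (3.34%) and lower for 146 (0.575%) at an adjusted p under 0.05 in a limma fit over the 12 arrays. The spread behind these tests came from the 4 groups with 2 lines, leaving 4 residual degrees of freedom, and the median 95% half-width of a difference from MEF was 1.92 log2 units. The median of all genes was 0.47 above MEF, and 0.111 under quantile normalisation, which gave 666 higher and 320 lower; 85.3% of the calls were higher, against 67.5% under quantile normalisation and 73.5% after normexp background correction. Without line 1 the fit called 204 higher and 6 lower, and without line 2 246 higher and 25 lower.

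Of 19 measured core and naive pluripotency factors, 12 were higher than in MEF and none was lower, against 3.34% and 0.575% of all genes. Their median difference from MEF was 8.14 log2 units, against 0.47 over all genes. The ES-higher set held 15 of the 19, and 13 of these 15 were at the ES level in line 1 and 14 in line 2. The shares over all ES-higher genes were 59.5% and 63%.
Esrrb, a nuclear receptor that sustains self-renewal, stood at 4.6 in ES, -5.97 in MEF, 4.75 in line 1 and 4.45 in line 2, an excess over MEF of 10.57 (SE 0.54, adjusted p = 0.0013). Sall4, a zinc-finger factor, stood at 5.21 in ES, -6.43 in MEF, 4.97 in line 1 and 5.1 in line 2, saturated on all but MEF, and the excess over MEF was 11.46 or more (SE 0.46, adjusted p = 0.00129). Klf4 lay outside the set, at 3.94 in ES, 3.48 in MEF, 3.01 in line 1 and 3.25 in line 2 (adjusted p = 0.668). Myc gave 0.81, 1.93, 2.4 and 0.99 in the same order, with an interval that spanned both directions (difference from MEF -0.24, SE 0.73, adjusted p = 0.863).

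Of 27 measured ES cell markers 16 were higher than in MEF, and of 23 germline and cleavage-stage genes 12 were. The share over all genes was 3.34%. Dppa4, an ES chromatin protein, was not well above background in MEF and stood at 2.27 in ES, 3.21 in line 1 and 1.8 in line 2, at least 654-fold over MEF on average (adjusted p = 0.00269). Fbxo15, the gene first used to select iPS cells, was at least 321-fold over MEF (adjusted p = 0.00285), and Mael, a germline protein that represses transposons, at least 277-fold (adjusted p = 0.00472).

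Of 29 measured epithelial adhesion genes 10 were higher than in MEF, against 3.34% of all genes. Of the 18 in the ES-higher set, 12 were at the ES level in line 1 and 15 in line 2. The shares over all ES-higher genes were 59.5% and 63%. Cdh1, which encodes E-cadherin, was not well above background in MEF and stood at 2.36 in ES, 3.17 in line 1 and 2.55 in line 2, at least 838-fold over MEF (adjusted p = 0.00129). The tight-junction gene Cldn7 was at least 905-fold over MEF (adjusted p = 0.00275), and Cldn6 stood at 4.57 in ES, -4.1 in MEF, 3.92 in line 1 and 3.62 in line 2, 7.87 over MEF (SE 0.5, adjusted p = 0.00224).

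Among the 10 genes with the largest excess over MEF that were well above background in both lines were Cdh1, Cldn7, Sall4, Platr10, Cecr2, Pla2g1b, Zfp42, Hook1 and Ccdc88c. Platr10, a long noncoding RNA, was saturated in both lines and at least 3790-fold over MEF, and Zfp42, known as Rex1, stood at 3.11 in ES, 3.7 in line 1 and 3.45 in line 2 and was at least 1370-fold over MEF (adjusted p = 0.00129 for both). Cecr2, a bromodomain protein, was at least 1490-fold and Pla2g1b, a secreted phospholipase, at least 1420-fold over MEF. The 9 genes named here were at the ES level in both lines.

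Of 31 polycomb components 5 were higher than in MEF, against 3.34% of all genes. Among them were Cbx7 (0.34 in ES, -5.44 in MEF, 0.52 in line 1 and 0.09 in line 2; adjusted p = 0.00763) and Phc1 (2.14, -3.36, 2.39 and 2.27; adjusted p = 0.00918), both subunits of the polycomb complex that compacts chromatin. Of 18 genes of DNA methylation and reprogramming enzymes 4 were higher, against the same 3.34%. Tet1, which oxidises methylated cytosine, was 5.04 log2 units above MEF (SE 0.58, adjusted p = 0.0106), and Dnmt3b, a de novo methyltransferase that was not well above background in MEF, stood at -1.05 in ES, 0.21 in line 1 and -0.02 in line 2, past ES in both. Bmi1 itself, the factor used for other lines of the series, had its highest level in MEF on the probe used (-2.1 in ES, 0.37 in MEF, -2.47 in line 1 and -1.98 in line 2; adjusted p = 0.0782), while a second Bmi1 probe was 1.16 log2 higher in ES than in MEF and not well above background in either line.

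The genes to be shut down separated the lines. Across the MEF-higher genes the median signal left was 11.7% of the MEF signal in ES, 15.72% in line 1 and 25.43% in line 2. In the same order, 64.6%, 67.9% and 79.3% of the genes were well above background. Dim signals were raised to -5.36 in ES and -4.82 in line 1, so a gene dim on both could read higher in line 1. With a common floor the median position was 0.963 in line 1 and 0.653 in line 2. As a ratio, the gap between the lines widened with the size of the switch, while in percent of MEF it changed little. For the 1092 genes 4 to 8-fold higher in MEF than in ES the medians were 18.6% of MEF in ES, 25.9% in line 1 and 34.2% in line 2, and for the 213 genes over 64-fold higher they were 0.803%, 1.21% and 10.5%. By bin, line 2 was at least 2-fold above line 1 for 281 of 1092, 199 of 558, 235 of 460 and 168 of 213. The reverse held for 99, 46, 23 and 3, with the smallest fold first in both. Counts of list members at this threshold below are to be read beside these.

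**Figure D2:**
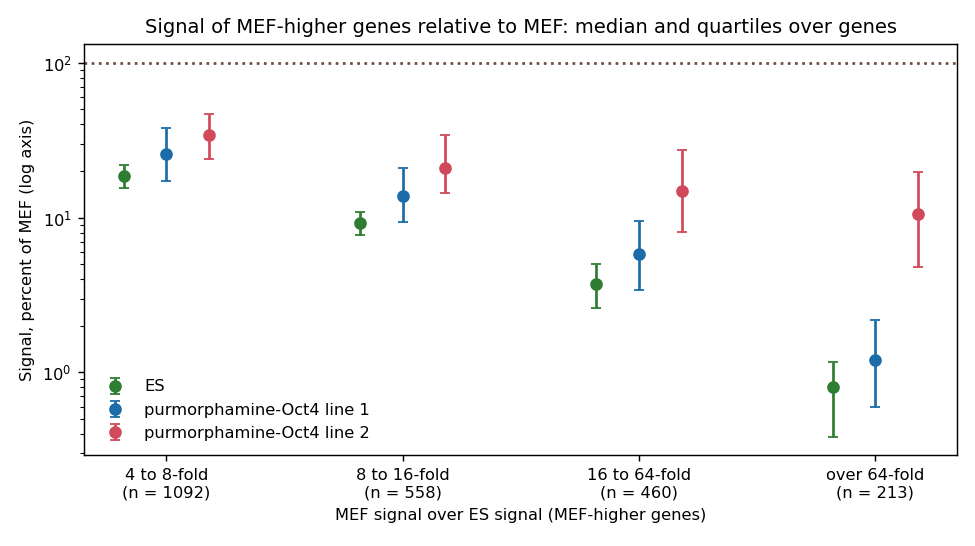
Signal left as a percent of the MEF signal, on a log axis, for MEF-higher genes in 4 bins of the fold between MEF and ES, as medians (points) and quartiles (bars) over genes in ES and in each purmorphamine-Oct4 line. Line 1 stays just above ES in every bin, and line 2 declines less, to 10.5% for genes over 64-fold apart. Dim signals are drawn at the array's floor, which is higher in line 1 than in ES.

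Set directly against each other over all genes, line 2 was at least 4-fold above line 1 for 1051 of 25324 genes (4.15%) and line 1 above line 2 for 514 (2.03%). Among MEF-higher genes the counts were 490 (21.1%) and 49 (2.11%), and among ES-higher genes 154 (4.02%) and 144 (3.75%). With 1 array a line this difference has no replicate check. The median of all genes was -0.17 log2 (line 1 minus line 2), and 0.18 after normexp correction, where 693 and 284 genes passed 4-fold.

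The fibroblast matrix and surface list was the largest, with 36 of 43 measured genes in the MEF-higher set. In line 1, 27 of the 36 were at the ES level, and in line 2 it was 9, against 64.9% and 46.1% of all MEF-higher genes. The median signal left was 2.5% of MEF in line 1 and 13.2% in line 2, and line 2 was at least 2-fold above line 1 for 24 of the 36 and below it for none. Dcn, the collagen-binding proteoglycan decorin, stood at 4.59 in MEF and 1.97 in line 2 and was not well above background in ES or line 1, so that line 2 kept 16.3% of the MEF signal and was at least 110-fold above line 1. Mmp3, a matrix-degrading protease, kept 9.68% of MEF in line 2 and no more than 0.113% in line 1.

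Col1a2, a chain of type I collagen named after its values were seen, was saturated in MEF at 5.16 and stood at 0.18 in ES, 0.96 in line 1 and 4.19 in line 2. The brightest Col1a1 probe, for the partner chain, did not separate the arrays (0.73 in ES, 0.68 in MEF, -0.25 in line 1 and -0.03 in line 2), whereas its other probes were -4.06 and -5.79 log2 from MEF in line 2 and not well above background in line 1. Of the whole list 3 genes were lower than in MEF at the limma threshold, against 0.575% of all genes. Fap, a surface protease of activated fibroblasts, was one of the 3 (at least 19.4-fold, adjusted p = 0.00824). Fap and Postn, a matrix protein of healing tissue (at least 39.4-fold, adjusted p = 0.0339), were not well above background in either line. A second Postn probe was dim on all but the MEF array and gave only bounds.

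Of 22 mesenchymal transcription factors none passed the limma threshold, and the 13 in the MEF-higher set kept a median of 3.21% of the MEF signal in line 1 and 18.9% in line 2. Twist2 stood at 4.9 in MEF and 0.45 in line 2 and was not well above background in ES or line 1. Prrx1, a homeobox factor of limb and facial mesenchyme, stood at -3.22 in ES, 4.26 in MEF, -4.34 in line 1 and 1.91 in line 2, which is 0.258% of MEF in line 1 and 19.6% in line 2. Tbx15 (-3.93, 3.69, -1.85 and 0.06) left 2.15% and 8.07%, while another Tbx15 probe, well above background on all 4 arrays, gave 0.88 in line 1 and -1.14 in line 2 relative to MEF.

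In contrast, 10 contractile and YAP target genes had a median position of 0.9 in line 1 and 0.86 in line 2. Cnn1, the smooth-muscle protein calponin, stood at -2.83 in ES, 2.34 in MEF, -1.95 in line 1 and -2.65 in line 2, and was lower than in MEF across both lines (-4.64, SE 0.8, adjusted p = 0.0352). Myl9, a myosin light chain that was saturated in MEF, still split the lines, with at most 0.249% of MEF in line 1 and 7.45% in line 2. Of 18 Hox genes in the set, 14 were at the ES level in line 1 and 8 in line 2, against 64.9% and 46.1% of all MEF-higher genes; Hoxd9 stood at -2.94 in ES, 2.73 in MEF, -3.25 in line 1 and -1.03 in line 2.

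Interferon-stimulated genes also split the lines. Of 23 in the MEF-higher set, 18 were at the ES level in line 1 and 1 in line 2. The shares over all MEF-higher genes were 64.9% and 46.1%. The median signal left was 3.99% of MEF in line 1 and 32.2% in line 2. Line 2 was at least 2-fold above line 1 for 18 of the 23 and below for none. Ifit1, which binds viral RNA, stood at 3.28 in MEF and 2.66 in line 2, 65.3% of MEF, and was not well above background in ES or line 1. Rtp4 kept 28.5% of MEF in line 2, and Oasl2 34.2%, both against under 1% in line 1. None of 31 measured genes passed the limma threshold in either direction against MEF.

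The 6 MHC class I and antigen-processing genes had a median position of 1.04 in line 1 and 0.31 in line 2. Psmb8, an immunoproteasome subunit, stood at -0.95 in ES, 2.47 in MEF, -0.07 in line 1 and 3.34 in line 2, so line 2 lay above MEF. Psmb9, its partner, was kept at the MEF level in both lines (-1.44, 0.93, 0.08 and 0.8). The trimming peptidase Erap1 went the other way and was not well above background in ES or in either line, at least 25.6-fold under MEF (adjusted p = 0.0173).

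Of 9 imprinted genes in the set, expressed from 1 parental copy, line 2 was at least 2-fold above line 1 for 8. Over the 4 bins of all MEF-higher genes this held for 281 of 1092 up to 168 of 213. Meg3, the maternally expressed noncoding RNA of the Dlk1-Dio3 domain, stood at -3.22 in ES, 3.01 in MEF, -4.51 in line 1 and 2.61 in line 2, so line 1 lay beyond ES and line 2 near MEF, 139-fold apart. The other iPS lines ran from 2.2 to 3.41, except for the second Bmi1-Oct4 line at -6.13, so most of them lay near MEF, as line 2 did. Rian and Mirg, neighbours of Meg3 named after their values were seen, were not well above background in line 1 and stood at 1.23 and -1.04 in line 2. H19, from another domain, stood at -1.9, 3.74, -1.42 and 3.31. No limma difference from MEF passed for Meg3 (SE 3.83, adjusted p = 0.547) or H19 (SE 3.05, adjusted p = 0.594).

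The cell-cycle inhibitors of the Ink4 locus, which hold back division in cultured fibroblasts, also split. Cdkn2a stood at -3.12 in ES, 0.33 in MEF, -4.66 in line 1 and -0.95 in line 2, and Cdkn2b at -3.3, 2.83, -3.19 and 1.06. Line 2 thus kept 41.1% of the MEF signal of Cdkn2a and 29.4% of that of Cdkn2b, and line 1 3.14% and 1.54%. All 8 blood, immune and endothelial genes of the set were at least 2-fold higher in line 2, among them the chemokine genes Cxcl1 (at most 0.232% of MEF in line 1 and 24.8% in line 2, since MEF was saturated) and Cxcl5 (125% of MEF in line 2, at most 1.57% in line 1), and Tyrobp, a myeloid adaptor (17.3% against at most 1.86%). The macrophage markers Adgre1 and Fcer1g, named after their values were seen, stood at 49.2% and 98.1% of MEF in line 2 and at 2.37% and 11.2% in line 1, the first not well above background there. Csf1r, of the same markers, was not well above background in ES or line 1 and was at 137% of MEF in line 2 on the probe used, while its other probes were well above background in MEF and in neither line. The summed level of all 6 macrophage and leukocyte markers was higher in line 1 (8.94) than in line 2 (4.41). The part of other cell types or of slide in the difference between the lines was not tested.

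**Figure D3:**
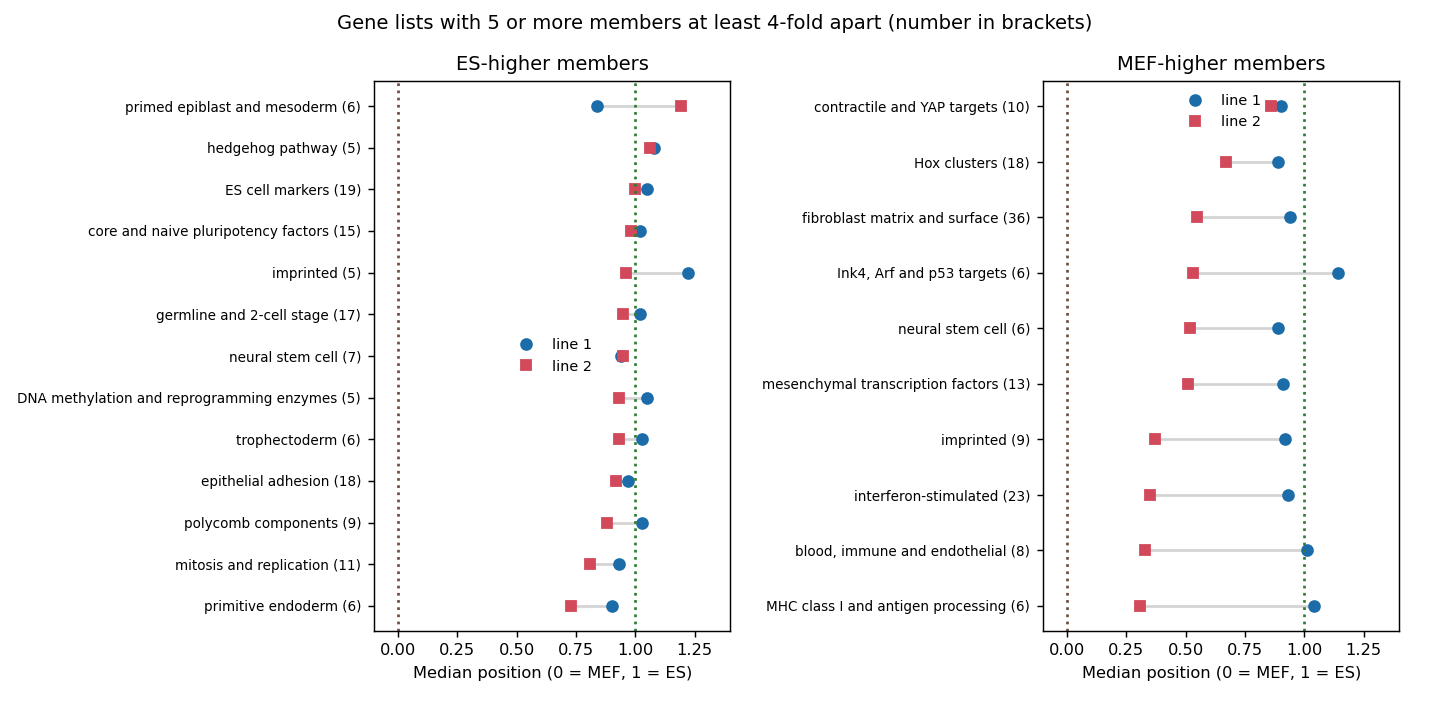
Median position of the members of each gene list in line 1 (circles) and line 2 (squares), for lists with at least 5 members in the ES-higher (left) or MEF-higher (right) set, with the number of members in brackets and dotted lines at the MEF level (0) and the ES level (1). On the right line 2 lies at 0.31 to 0.67 for 9 of the 10 lists and at 0.86 for contractile genes, whereas line 1 lies at 0.89 to 1.14.

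The 10 genes with the widest excess of line 2 over line 1 were all MEF-higher. Thbd, the endothelial and fibroblast receptor thrombomodulin, was saturated in MEF at 5.21 and stood at 3.83 in line 2, and was not well above background in ES or line 1, so that line 2 was at least 400-fold above line 1. Others of the 10 were Ifit1 (at least 178-fold), Cd44 (164-fold), Ifi27, Ccl9, Meg3, Il1rn, Rtp4 and Tm4sf1. For Cd44, a hyaluronan receptor, both other probes were well above background in line 2 and not in line 1, at -3.41 and 4.03 log2 from MEF in line 2. On the probe used for each gene named here, line 1 was at or below the ES level and line 2 kept no more than 76.1% of MEF. The other Meg3 probes put line 2 at 0.5, 2.81, 0.11 and -0.45 log2 from MEF.

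In the other direction the widest excess was for Tmem80 (-1.9 in ES, 0.71 in MEF, -0.34 in line 1, not well above background in line 2). Cdx2, the trophectoderm transcription factor, stood at -1.21 in ES and -0.87 in line 1 and was not well above background in MEF or line 2, at least 12.5-fold apart. Pde6g and Clnk were ES-higher genes past ES in line 1 but between in line 2, and Ndst2 stayed at the MEF level in line 1.

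**Figure D4:**
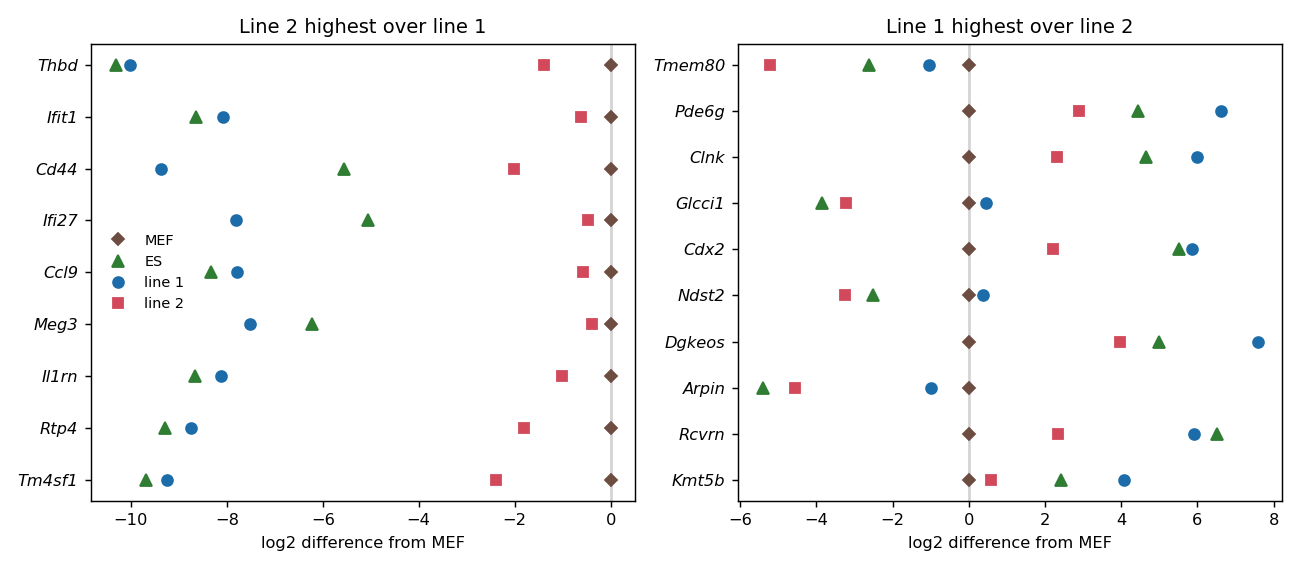
Differences from MEF, in log2 units, of ES (triangles), line 1 (circles) and line 2 (squares) for genes among the 10 with the widest excess of line 2 over line 1 (left) and of line 1 over line 2 (right), with dim signals drawn at the array's background bound. On the left line 2 sits between -0.39 and -2.39 while line 1 and ES sit at -5.05 or lower.

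Genes kept at the MEF level in both lines were few, and many were dim. Among the 107 ES-higher genes kept, Palm had the clearest signal. Palm, which encodes the membrane protein paralemmin, stood at 3.08 in ES, -1.18 in MEF, -1.48 in line 1 and -1.9 in line 2, so both lines lay just below MEF and were 23.5-fold and 31.7-fold below ES. Against ES the difference was -4.77 log2 units (SE 0.6), which did not pass (limma adjusted p = 0.428). Rpa3, a subunit of the single-stranded DNA-binding complex of replication, stood at 1.23, -2.83, -2.0 and -2.9, and Dock10, an exchange factor for small GTPases, at -0.73, -4.98, -4.09 and -4.06. Hsd17b2, Tgm2, Zfp354b, Oas1b and Tead3 were not well above background in either line on the probe used, Abcb9 not in line 1 and Kdm8 not in line 2. Another Tgm2 probe was well above background in line 1, at 1.09 log2 over MEF against 1.7 in ES. Across the 7 other iPS lines, 6 of the 107 genes were kept at the MEF level in all 7 and 4 in none. For 42 of the 107, ES was at least 2-fold above MEF and all 9 iPS lines. The Bmi1 sphere array was not part of this count.

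Among the 73 MEF-higher genes kept in both, Zbtb45, a zinc-finger gene, stood at -4.69 in ES, -0.24 in MEF, 0.28 in line 1 and -0.94 in line 2, on either side of MEF. Alx1, a homeobox factor of facial mesenchyme, stood at -4.78, -1.23, -1.99 and -1.02. Stmn2, a neuronal regulator of microtubules, stood at -2.14, 1.21, 0.76 and 1.36. All 3 genes were at least 6.88-fold above ES in both lines. A second Stmn2 probe was not well above background in ES or line 2. Tubb3, the neuronal tubulin, was also kept (-3.69, -0.99, -1.01 and -0.64), and Ebf1 was at 54.0% and 51.0% of MEF, while a second Ebf1 probe was not well above background in ES or either line. Dusp28, Agrp, Camk1, Tapt1 and Clic5, also among the 10 with the largest gap, were not well above background in ES. Of the 73, 5 were kept in all 7 other lines and 3 in none.

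The 131 ES-higher genes past ES in both lines were led by Mreg, which encodes the melanosome transport protein melanoregulin. Mreg stood at -1.58 in ES, -5.17 in MEF, 4.42 in line 1 and 4.43 in line 2, so the lines coincided, up to 64.6-fold above ES. They were higher than MEF (9.6, SE 1.73, adjusted p = 0.0403), and the difference from ES did not pass (6.01, SE 1.73, adjusted p = 0.858). Among the other iPS lines Mreg ran from -1.12 in the first Bmi1-Oct4 line to 4.87 in the first tail-tip line. Sprr3, of the cornified envelope of skin, stood at -4.69 in ES and -2.0 and -1.98 in the lines and was not well above background in MEF, at least 29.0-fold over MEF (adjusted p = 0.0337). Tex19.1, a germline gene, stood at -0.53 in ES, 1.22 in line 1 and 1.09 in line 2, at least 257-fold over MEF (adjusted p = 0.0013). For Mreg, Sprr3 and Tex19.1 the choice as past ES puts both lines above MEF in advance. Their p-values against MEF are therefore no separate support.

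Acer2, a ceramidase of the Golgi, stood at 0.31 in ES, -2.51 in MEF, 3.51 in line 1 and 3.63 in line 2. Hpn, a membrane protease, stood at -0.27, -3.74, 2.55 and 2.47, and Fancd2, which acts in DNA crosslink repair, at 1.21, -2.68, 4.07 and 3.64. Both lines lay above ES for each of the 3 on these probes, and no limma difference from MEF passed (adjusted p = 0.129, 0.135 and 0.0822). The other Fancd2 and Acer2 probes did not put both lines past ES. A second Fancd2 probe gave at least 3.03 over MEF in ES and 3.95 in line 1, under 2-fold apart. It was not well above background in line 2. Of the other Acer2 probes, 1 gave 1.6 in ES, 2.81 in line 1 and 2.04 in line 2 relative to MEF. Another gave 1.45 in ES and 1.73 in line 1 and was not well above background in line 2. The second Hpn probe gave at least 5.72 over MEF in ES, 6.94 in line 1 and 7.23 in line 2. Pcgf5, a polycomb subunit saturated in line 1, stood at 2.68, -1.05, 4.88 and 3.94. Its second probe was highest in MEF, so on it Pcgf5 was not an ES-higher gene. Line 2 was at -2.12 log2 from MEF there, and ES and line 1 were not well above background. Of the 131 genes, 6 were past ES in all 7 other lines and 2 in none, and for 0 of them did both lines lie at least 2-fold beyond every other array.

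**Figure D5:**
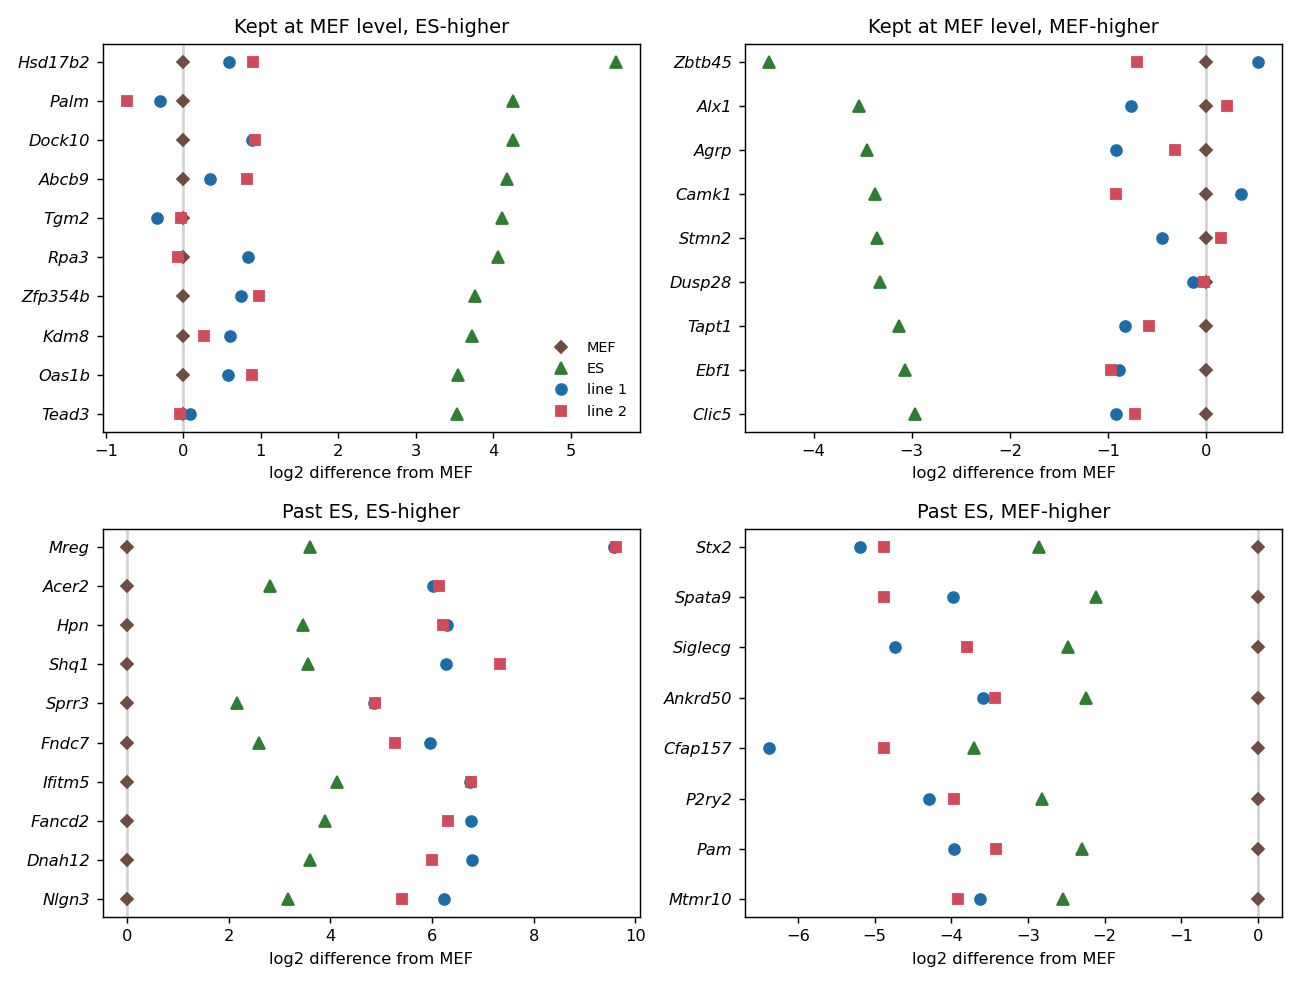
Differences from MEF, in log2 units, of MEF (diamonds), ES (triangles), line 1 (circles) and line 2 (squares) for named genes kept at the MEF level and named genes past ES, in 4 panels by class and direction, with dim signals drawn at the array's background bound. In the panel of ES-higher genes past ES, both lines lie to the right of ES for every gene, by the widest margin for Mreg.

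Many of these probes share letters, which is why their sequences are shown. The 4 motifs of 6 bases overlap one another as windows on a repeat of the letters GTCT and were chosen after the values were seen: one is GTCTGT, another is TCTGTC, another is CTGTCT and the last is TGTCTG. At least 1 of them lay in the probe of 45 of the 131 genes past ES (34.4%), against 8.6% of all ES-higher genes and 6.86% of all 25415 genes. On the other strand, where they read as ACAGAC, then as GACAGA, then as AGACAG and then as CAGACA, the share was 3.82% of the 131 and 6.35% of all genes. The 7-base TCTGTCT lay in 16.8% of the 131, 2.18% of ES-higher genes and 1.03% of all genes. Windows of 27 bases from 6 of the 60-base probes, 5′ to 3′, with the motif letters in capitals, are as follows, at mm7 positions chr7:137367313-137367372 (minus strand) for Ifitm5, chr6:113698681-113698740 for Fancd2, chr14:24206425-24206484 for Dnah12, chrX:96648473-96648532 for Nlgn3, chr19:36156443-36156502 for Pcgf5 and chr8:91273231-91273290 for Irx6, the last 5 on the plus strand.
Ifitm5: acatgctctgGTCTGTCTtcagcacga
Fancd2: tctaagtcaTGTCTGTCTttgacttct
Dnah12: tgcaaaaccTCTGTCTGTgaagatagt
Nlgn3: agtctctttgTGTCTGTCatttctctt
Pcgf5: taaggccatTGTCTGTCTGagttgtca
Irx6: tctccaaggaCTGTCTGTgtctccttc

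Over all genes, 19.7% of those with a motif were at least 2-fold above ES in line 1 and 17.5% in line 2, against 12.8% of those without in line 1. Each gene with a printed window correlated with the mean of the other motif genes over the 12 arrays (Pearson r 0.98 to 0.99). This is a description over arrays that share labelling and scanning. All these genes were chosen as past ES in both lines, which fixes the order of MEF, ES and the 2 lines in advance. The r is therefore no test of the motifs. The other 5 motif genes computed gave 0.98 (Acer2), 0.96 (Fndc7, Gpr161 and Lhx1) and 0.78 (Tex19.1). Hpn, whose probe holds none of the 4 motifs, gave 0.98, and Sprr3, Dnmt3b and Mreg, also without one, 0.78, 0.74 and 0.7. The mean of 11 motif genes, centred over arrays, was highest in the first oxysterol line (2.64) and second highest in the second tail-tip line (2.11), with 1.88 in line 1, 1.47 in line 2, -0.78 in ES and -4.53 in MEF. Without genes whose probe holds a motif, a choice made after seeing the data, 86 ES-higher genes were past ES. What the letters have to do with the signals was not tested.

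The 12 MEF-higher genes past ES in both lines included Siglecg and Cfap157, which passed the limma threshold against MEF. The choice of genes past ES puts both lines below MEF in advance, so these p-values are no separate support. Siglecg, a sialic-acid-binding receptor of B cells, stood at -2.15 in ES, 0.33 in MEF, -4.4 in line 1 and -3.47 in line 2 (-4.27, SE 0.68, adjusted p = 0.0285). Cfap157, a ciliary protein, stood at -1.68, 2.02, -4.36 and -2.86 (-5.62, SE 1.05, adjusted p = 0.0436). A second Cfap157 probe, well above background on all 4 arrays, gave 0.65 in line 1 and -0.13 in line 2 relative to MEF, against the first probe. The second probes of Stx2, P2ry2 and Mtmr10 were not well above background in either line.

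The hedgehog pathway, which purmorphamine acts on, was mostly outside the 4-fold set. Of 23 measured genes 2 were higher than in MEF and none was lower, against 3.34% and 0.575% of all genes. Smo, the target of purmorphamine, stood at 2.79 in ES, 4.44 in MEF, 2.01 in line 1 and 2.32 in line 2 (-2.27, SE 0.54, adjusted p = 0.0815). On another probe line 2 was 1.97 log2 above MEF, while ES and line 1 were not well above background. A further probe was at least 2.77 log2 above MEF in both lines, where MEF was not well above background. Ptch1, the receptor and a target gene, stood at -2.31, -3.64, -1.23 and -3.1, with line 1 highest and line 2 near MEF (adjusted p = 0.379). A second Ptch1 probe went the other way, well above background in MEF and line 2 (-0.84 from MEF) and not in ES or line 1. Gli1, the target gene most used as a readout, stood at -3.54, -5.37, -3.61 and -3.94 (adjusted p = 0.295), and Gli2 between -4.0 and -3.63 on all 4 arrays. A second Gli2 probe was well above background in ES and line 1 and not in MEF or line 2, at least 4.35 log2 over MEF in line 1. Ihh, a ligand, was kept at the MEF level (-1.88, -4.39, -3.85 and -4.19). Gpr161, a ciliary receptor that restrains the pathway, was past ES on a probe that holds CTGTCT, one of the motifs above (1.69, -0.84, 3.91 and 4.52). A second Gpr161 probe gave 1.45 in ES and 3.47 in line 1 relative to MEF and was not well above background in line 2. Gas1, a co-receptor, followed the split of the lines (-4.49, 0.63, -3.94 and -0.82).

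Among control genes, Hprt was saturated in MEF at 5.11 and stood at -0.73 in ES, -1.83 in line 1 and 2.1 in line 2, and B2m, the light chain of MHC class I, at 5.15 (saturated), 2.5, 2.04 and 4.63. Of 17 control genes none passed the limma threshold, and their median difference from MEF was -0.02.

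Against ES, limma called 0 of 25373 genes higher (0%) and 0 lower, with 1133 at an unadjusted p under 0.05 and a lowest adjusted p of 0.428. The alternatives also gave 0 calls, with 1081 to 1507 genes at an unadjusted p under 0.05. Against the other 5 embryonic-fibroblast lines it called 0 of 25355 (0%), with 1272 unadjusted, and 820 to 2675 under the alternatives. The median 95% half-width was 3.78-fold against ES and 2.48-fold against the other lines. These widths are per gene, before adjustment over all genes. Larger differences also went uncalled, such as -4.77 log2 units from ES for Palm, so 0 calls do not show likeness.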

How the data were processed

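Per the labels and file headers, each sample was hybridised to 1 one-colour Agilent array and scanned with Agilent Feature Extraction on mm7 probe annotation; the deposited intensity is the authors' processed signal, already background-subtracted, and RNA quality is not given in the sources used here. From it log2(intensity) minus the array's 75th percentile over gene spots was computed, outlier spots were left out, and the brightest probe stood for a gene (8309 genes had several). Of 41174 probes, 22951 were named by accession, 9768 by symbol or synonym, and 8455 kept the deposited name. For positions, classes and folds, signals not well above background were set to the array's lowest well-above value; limma was fitted on the signals as measured, so the adjusted p beside an "at least" fold comes from unfloored values.

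Differences were tested with limma 3.58.1 in R 4.3.3 (12 arrays, 8 groups, 4 residual degrees of freedom) with Benjamini-Hochberg adjustment at 0.05, and the tables were made with Python 3.11.15, pandas 2.3.3 and NumPy 2.4.6. The scripts were tested on simulated data. Array number limits the precision.

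The members and gene lists were chosen with earlier results of these data known. Named genes were a fixed set, the 10 most extreme kept, past-ES, line-against-line and limma genes each way, and up to 4 per list. Col1a1, Col1a2, Rian, Mirg, Adgre1, Fcer1g, Irx6 and the genes at the 4-fold edge were named after their values were seen. Alternatives covered background correction, scaling, probe choice, floors, the gap, the class width, each line left out, slide and clone number. A few genes that met these rules are not reported here.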

Additional observations from a re-analysis of the deposited data

How the results depend on the processing

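The median position over MEF-higher genes was 0.827 to 0.963 in line 1 and 0.566 to 0.668 in line 2 over the alternatives run, while counts of genes kept or past ES in both lines moved. Under normexp correction the ES-higher set had 2545 genes, its median positions were 0.851 and 0.81, 183 genes were kept and 70 past ES, the MEF-higher counts were 39 and 4, 279 genes were lower than in MEF, and the 4-fold line differences were 284 and 693. Quantile normalisation gave positions of 0.825 and 0.799 and 320 lower genes, and the percentile over detected probes gave 0.894 for line 2. With dim signals as measured, line 2 was at 0.818 and 22 MEF-higher genes were past ES; with the mean of all probes 7 were. The common floor left 2650 ES-higher genes and gave 0.852 and 0.805, with 230 kept and 78 past ES. A gap of 8-fold left 2050 and 1231 genes, with 29 and 9 kept and 74 and 2 past ES. A width of 1.5-fold gave 27 and 26 kept and 248 and 31 past ES. Genes well above background on all 4 arrays gave 0.906 for line 1, 54 kept and 85 past ES. Without genes holding a motif, 86 were past ES.

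With 1 line alone, 257 to 269 ES-higher genes were kept and 272 to 378 past ES, 198 to 342 MEF-higher genes were kept and 35 to 166 past ES, and limma called 204 to 246 higher and 6 to 25 lower. An intensity trend gave 233 lower. The fit on the 4 arrays alone called 0 higher and 0 lower (7124 at an unadjusted p under 0.05). Clone numbers did not pair the samples (correlations of -0.164 to 0.244), and the replicate block gave 459 higher and 58 lower. With slide as a random block 1039 were higher and 214 lower.

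Signs reversed for Stx2 (-0.4) and Mtmr10 (-0.28) past ES and for Smo (1.04 over MEF) with the mean of all probes, for Gli2 (-0.24), Ihh (-0.2) and Ring1 (-0.07) under quantile normalisation, and for Insig1 under normexp (0.16). With 1 line alone, the difference from MEF ran from -0.95 to 0.46 for Myc, -0.03 to 0.7 for Ring1, -0.02 to 0.36 for Tubb3, -2.54 to 0.87 for Psmb8, -6.28 to 0.32 for Cxcl5 and -1.22 to 0.15 for Insig1. None of these had passed the limma threshold. The cause was not tested.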

Other observations

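The Y-linked genes Ddx3y, Eif2s3y, Kdm5d and Uty, looked at after other values were seen, were well above background for 0 of 4 in line 1 and 4 of 4 in line 2. The counts were 4 of 4 in MEF and 2 of 4 in ES. Xist, the RNA of the inactive X chromosome, stood at 3.64 in line 1, 3.11 in line 2, 2.82 in ES and -0.1 in MEF. The labels give no sex for these samples, and the part of sex or of the source cells in the difference between the lines was not tested.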
